A study of Mus musculus with 2 samples.

Results

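The genes described here are 10 neuropeptide genes, Sst, Vip, Npy, Cck, Tac1, Penk, Pdyn, Crh, Cort and Adcyap1, picked by symbol from a list of peptides that cortical neurons make. All 10 were found among the 31053 genes of the files, each under 1 identifier. A neuropeptide gene codes for a precursor protein that is cut into short peptides inside dense core vesicles, and these are released during sustained firing and act on G protein-coupled receptors of nearby cells. In cortex most of them are made by inhibitory interneurons, which release GABA as well, and the peptide a cell makes has long been used to tell interneuron classes apart. Excitatory neurons, which release glutamate, make peptides too, above all cholecystokinin.

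The study treated male APP/PS1 mice, which carry human amyloid precursor protein and presenilin 1 transgenes under the prion protein promoter and form amyloid plaques. OLE (N-oleoyl-leucine, C18:1-Leu), an amino acid joined to a fatty acid, was given at 25 mg/kg/day from 15 to 18 months of age through alkaline drinking water, and the vehicle group drank the same water with DMSO. Nuclei came from entorhinal cortex at 18 months, pooled from 5 mice into 1 library per group, and no wild-type library was used here. What can be asked of the peptide genes is which neurons held their transcripts and how the OLE treated library compared with the vehicle library. The vehicle library held 6745 nuclei and 70845739 UMIs (unique molecular identifiers, each 1 counted RNA molecule), with a median of 3989 per nucleus. The OLE treated library held 6173 nuclei and 69485537 UMIs, with a median of 6392. After likely doublets (barcodes that may hold 2 nuclei) were removed, 6414 vehicle and 5884 OLE treated nuclei remained, and the libraries shared 14 barcode sequences. Since each group was 1 pool, no difference below has a replicate check, and no test was run.

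Nuclei were clustered without the 10 genes, and clusters were named from markers, with "-like" for a name that rests on markers alone. Cortical classes were present: 325 vehicle and 354 OLE treated nuclei were GABAergic-like (inhibitory, read from genes such as Gad2 and Erbb4), and 1493 and 1508 were glutamatergic-like (excitatory, read from genes such as Slc17a7). Clustering the GABAergic-like nuclei again gave 4 groups that carry the names of interneuron classes. Pvalb-like, the fast-spiking class, had 116 vehicle and 121 OLE treated nuclei. Sst-like, the class that contacts dendrites, had 80 and 90. Lamp5-like, which includes neurogliaform cells, had 63 and 66, and Vip-like, the class that inhibits other interneurons, had 48 and 60. Another group, of 18 and 17 nuclei, stayed unnamed and is called by its leading genes, Pard3b Ptprk. The share of GABAergic-like nuclei that were Sst-like was 24.6% (20.0 to 29.7) in the vehicle library and 25.4% (21.0 to 30.3) in the OLE treated one, so the make-up of the class overlapped between libraries. The 13 excitatory clusters, of which 3 stayed unnamed and are not counted as glutamatergic-like, are also called by a pair of leading genes. Median UMIs per nucleus were lower in the OLE treated library in both classes, at 18709 and 16697 in GABAergic-like and at 20780 and 19072.5 in glutamatergic-like nuclei. Ranges in brackets are 95% intervals, exact Poisson for levels, exact binomial for ratios and Clopper-Pearson for shares, and cover counting error only.

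In GABAergic-like nuclei several of the peptide transcripts, but not all, were more abundant in the OLE treated library. A level here is the UMIs of a gene per 1000000 UMIs of all genes in the nuclei named, and a difference is the log2 of the OLE treated level over the vehicle level, so that 1 means doubling. Only genes with 100 UMIs or more in the class, libraries summed, were compared. Of the 9 that had them, 6 (Sst, Vip, Npy, Cck, Pdyn and Cort) were more than 1.5-fold higher and 0 more than 1.5-fold lower, where 5.81% of all 9681 genes compared were past 1.5-fold in either direction. The Cck call turned on 35 nuclei described with Cck, without which its difference was 0.27 (0.03 to 0.51) and the count 5. The Pdyn call turned on 4 OLE treated nuclei that held 80 of its 129 UMIs there. The other OLE treated nuclei held 49, against 51 in all vehicle nuclei. Tac1, Penk and Crh were higher by less than 1.5-fold, and Adcyap1 had too few UMIs to compare, 8 in vehicle and 5 in OLE treated nuclei. In glutamatergic-like nuclei 7 genes could be compared, and 5 (Cck, Sst, Npy, Tac1 and Adcyap1) were more than 1.5-fold higher with 0 lower, where 4.21% of 13575 genes were past 1.5-fold. With the 3 unnamed excitatory clusters added 5 were higher again, but Npy fell to 0.28 (-0.19 to 0.75) and Penk came in at 0.61. The count fell to 3 of 6 genes without the nucleus richest in each gene. It was 3 of 7 with every nucleus weighing the same, and 3 of 6 with log-normalized counts before clustering. Each of the 7 levels was below that of oligodendrocyte-like nuclei, which are glia, in at least 1 library, so with that level subtracted 0 of the 7 could be compared. The median difference was 0.73 over the 9 genes and 0.71 over the 7, against 0.08 and 0.07 over all genes compared in the same class.

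Shorter genes as a whole were higher in the OLE treated library, and these genes are short. The 10 spans run from 1386 to 13280 bases, and 8 are at most 10000 bases, Tac1 and Pdyn being the exceptions, whereas the median span over all genes is 12680.5. In GABAergic-like nuclei the median log2 difference was 0.30 over 1364 genes of at most 10000 bases, 19.4% of which were past 1.5-fold, and -0.02 over 2077 genes longer than 100000 bases. In glutamatergic-like nuclei it was 0.21 over 2723 short genes, 10.1% past 1.5-fold. Oligodendrocyte-like and microglia-like nuclei showed the same order, with 0.23 over 435 and 0.18 over 195 short genes. Genes of at most 10000 bases gave 5.80% of GABAergic-like UMIs in the vehicle library and 6.87% in the OLE treated one. What part gene length, or what moves with it, has in the peptide differences was not tested.

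Subtracting a median from every log2 difference sets it against other genes. Set against the short-gene medians, 4 genes stayed more than 1.5-fold higher in GABAergic-like nuclei (Sst, Vip, Npy and Pdyn) and 3 in glutamatergic-like nuclei (Cck, Tac1 and Adcyap1). Of these, Pdyn rests on 4 OLE treated nuclei that held 80 of its 129 UMIs. Of all genes past 1.5-fold in GABAergic-like nuclei, 528 were higher and 34 lower as counted (94% higher), 333 and 54 when set against the median of all genes (86.0%), and 95 and 318 when set against that of short genes (23.0%). In glutamatergic-like nuclei the splits were 542 and 30 (94.8%), 361 and 56 (86.6%), and 151 and 175 (46.3%).

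**Figure D1:**
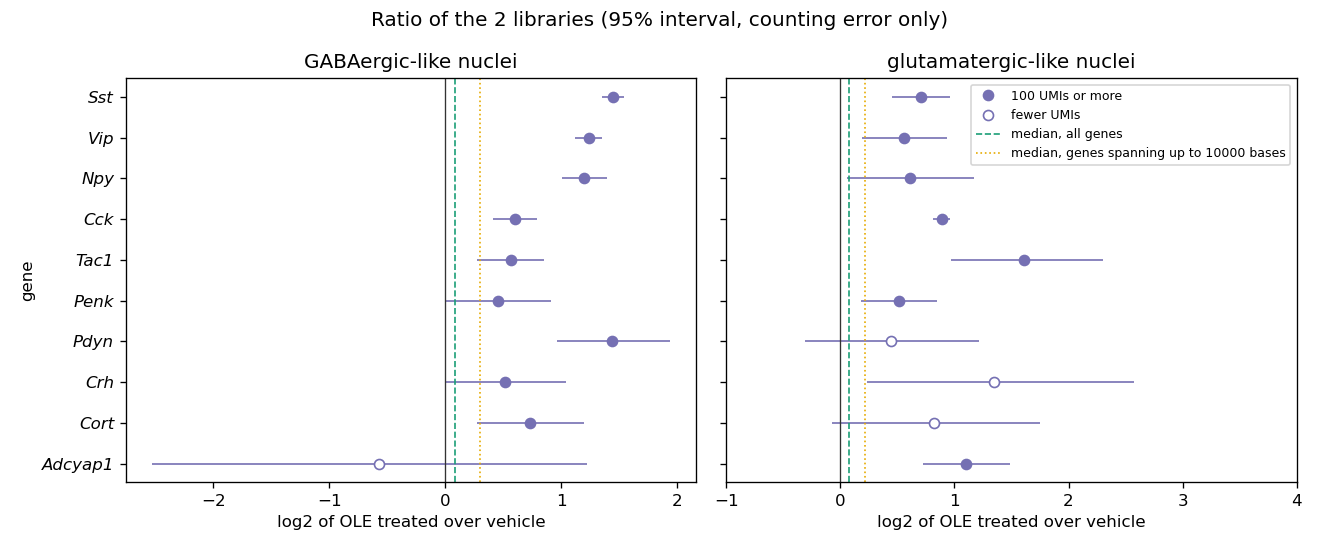
Log2 of the OLE treated level over the vehicle level (x axis, no unit, ranges differ between panels) of each neuropeptide gene (y axis) in GABAergic-like and glutamatergic-like nuclei, with 95% intervals for counting error; filled points have 100 UMIs or more in all and open points fewer, the dashed line is the median of all genes compared and the dotted line that of genes of at most 10000 bases. Sst at 1.45 and Vip at 1.24 lie right of both lines among GABAergic-like nuclei, and Cck at 0.89 does so among glutamatergic-like nuclei.

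Sst codes for somatostatin, a peptide that inhibits the release of hormones and transmitters and that marks interneurons contacting distal dendrites. GABAergic-like nuclei held 1257 Sst UMIs in the vehicle library and 3198 in the OLE treated one, levels of 179 and 489, a log2 difference of 1.45 (1.36 to 1.55). Most of these lay in Sst-like nuclei, where the level was 637 (599 to 677) and 1682 (1621 to 1745), a difference of 1.40 (1.30 to 1.504). The next level in both libraries was that of Pard3b Ptprk, 206 from 77 UMIs and 818 from 236, of which 1 OLE treated nucleus gave 32.2%. Sst was thus high in these 2 groups of interneurons, and in both libraries the first 3 places in the order, Sst-like, Pard3b Ptprk and Pvalb-like, did not overlap. Pvalb-like nuclei had levels of 32.2 and 34.2, a difference of 0.09 (-0.37 to 0.54), so they did not differ at this depth. In Lamp5-like nuclei the vehicle level of 20.0 was above the OLE treated level of 12.3, but 75% of those vehicle UMIs sat in 1 nucleus. Further down each cluster overlapped the next, 15 of 17 neighbouring pairs among 18 clusters in each library, though clusters further apart did not always. In vehicle Lamp5-like nuclei (13.7 to 28.3) were clear of Otof Trpc6 (3.73 to 6.75), and in the OLE treated library Vip-like nuclei (14.7 to 37.2) were clear of it (7.91 to 11.7). The vehicle separation rests on the 1 Lamp5-like nucleus that held 24 of the 32 UMIs, since the other 62 held 8. Spearman's rho of the levels between libraries was 0.83 over the 18 clusters.

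In Sst-like nuclei 3 of the 10 genes had at least 100 UMIs and 3 of these 3 were more than 1.5-fold higher (Sst, Npy and Pdyn), where 8.12% of 5002 genes, and 34.9% of the 249 short ones, were past 1.5-fold. The Pdyn call rests on 4 OLE treated nuclei that held 80 of its 126 UMIs in this class. The amount of Sst per nucleus differed. The median nucleus held 7.5 Sst UMIs (quartiles 3 and 18) in vehicle and 23.5 (10.5 and 40.75) in OLE treated tissue. Nuclei with an Sst UMI made up 96.2% of the class in vehicle and 95.6% in OLE treated tissue. That share was near its ceiling and could hardly rise, so it does not show whether the share of nuclei making Sst differed. At least 10 Sst UMIs were seen in 45.0% of vehicle and 75.6% of OLE treated nuclei. Short genes as a whole were also higher here, with a median log2 difference of 0.42 over 249 genes. Mitochondrial transcripts gave 0.489% of Sst-like UMIs in the vehicle and 0.645% in the OLE treated library. The part of either in the Sst difference was not tested.

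Cort codes for cortistatin, a close relative of somatostatin that binds the same receptors. GABAergic-like nuclei held 66 Cort UMIs in the vehicle library and 102 in the OLE treated one, levels of 9.38 and 15.6, a difference of 0.73 (0.27 to 1.20). Pvalb-like nuclei had 36 and 62 UMIs, levels of 13.5 and 25.5, a difference of 0.92 (0.31 to 1.56), and 30.6% of their vehicle UMIs lay in 1 nucleus. Sst-like nuclei had 23 and 20 UMIs, levels of 13.9 and 11.8, a difference of -0.23. The levels of these 2 classes overlapped in the vehicle library, while in the OLE treated one Pvalb-like nuclei (19.6 to 32.7) were clear of Sst-like nuclei (7.23 to 18.3), and leaving out the richest nucleus took the Sst-like level from 13.9 to 6.81 in vehicle and from 11.8 to 5.98 in OLE treated tissue. Pard3b Ptprk, with 4 and 12 UMIs, was first in the OLE treated library at 41.6, but 75% of its UMIs there were in 1 nucleus.

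Vip codes for vasoactive intestinal peptide, made by interneurons that inhibit other interneurons. GABAergic-like nuclei held 871 Vip UMIs in the vehicle library and 1912 in the OLE treated one, levels of 124 and 292, a difference of 1.24 (1.12 to 1.36). In Vip-like nuclei the level was 1115 (1040 to 1194) and 2191 (2092 to 2295), a difference of 0.97 (0.86 to 1.10). Over the 18 neuronal clusters Vip was the most sharply placed of the 10 transcripts: the level in Vip-like nuclei was 89.1 times that of the next cluster, Lamp5-like, in vehicle and 40.8 times in OLE treated tissue. Of the 4 genes with at least 100 UMIs in Vip-like nuclei, 1, Vip itself, was more than 1.5-fold higher and 0 lower, where 5.82% of 2594 genes were past 1.5-fold. A Vip UMI was found in 81.2% of vehicle and 91.7% of OLE treated Vip-like nuclei, and the median nucleus held 14 and 21. Outside the class, values rested on few nuclei. Lamp5-like nuclei had 20 and 70 UMIs, levels of 12.5 and 53.8, and 65.7% of the 70 were in 1 nucleus. The 35 nuclei described with Cck held 17 of the 20 and 68 of the 70. Set apart, they had Vip levels of 26.7 and 156, so the multiples above depend on counting them as Lamp5-like. Pvalb-like nuclei had 28 and 12, levels of 10.5 and 4.94, and 89.3% of the 28 were in 1 nucleus, without which the vehicle level was 1.15 from 3 UMIs.

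Npy codes for neuropeptide Y, which dampens transmitter release and is made by neurogliaform cells and by part of the somatostatin interneurons. GABAergic-like nuclei held 313 Npy UMIs in the vehicle library and 669 in the OLE treated one, levels of 44.5 and 102, a difference of 1.20 (1.01 to 1.40). Lamp5-like nuclei had levels of 93.8 (79.4 to 110.1) and 217 (193 to 244), a difference of 1.21 (0.92 to 1.51). Sst-like nuclei had levels of 79.6 (66.6 to 94.4) and 203 (182 to 226), a difference of 1.35 (1.06 to 1.65). Their levels overlapped each other in each library. A few nuclei carried the Lamp5-like difference: the median nucleus held 1 UMI in each library, and nuclei with at least 10 UMIs held 56 of 150 in vehicle (2 nuclei) and 215 of 283 in OLE treated tissue (10 nuclei), the others 94 and 68. In Sst-like nuclei such nuclei held 83 of 132 (5 nuclei) and 231 of 343 (11 nuclei), the others 49 and 112. In Lamp5-like nuclei 2 of the 10 genes, Npy and Cck, had at least 100 UMIs, and 2 of these 2 were more than 1.5-fold higher, where 7.4% of 4489 genes, and 27.7% of the 173 short ones, were past 1.5-fold. The Cck call there rests on a group of 35 nuclei described with Cck. The share of nuclei with an Npy UMI was 50.8% and 53.0% in Lamp5-like and 31.2% and 51.1% in Sst-like nuclei, vehicle first. Pvalb-like nuclei were low for Npy, with levels of 6.73 and 9.47. The Lamp5-like levels depend on how the class is drawn: they were 60.9 and 119.7 with no doublets removed, and 149.8 and 323 at a finer clustering (resolution 0.8 in place of 0.4), higher in the OLE treated library each time.

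**Figure D2:**
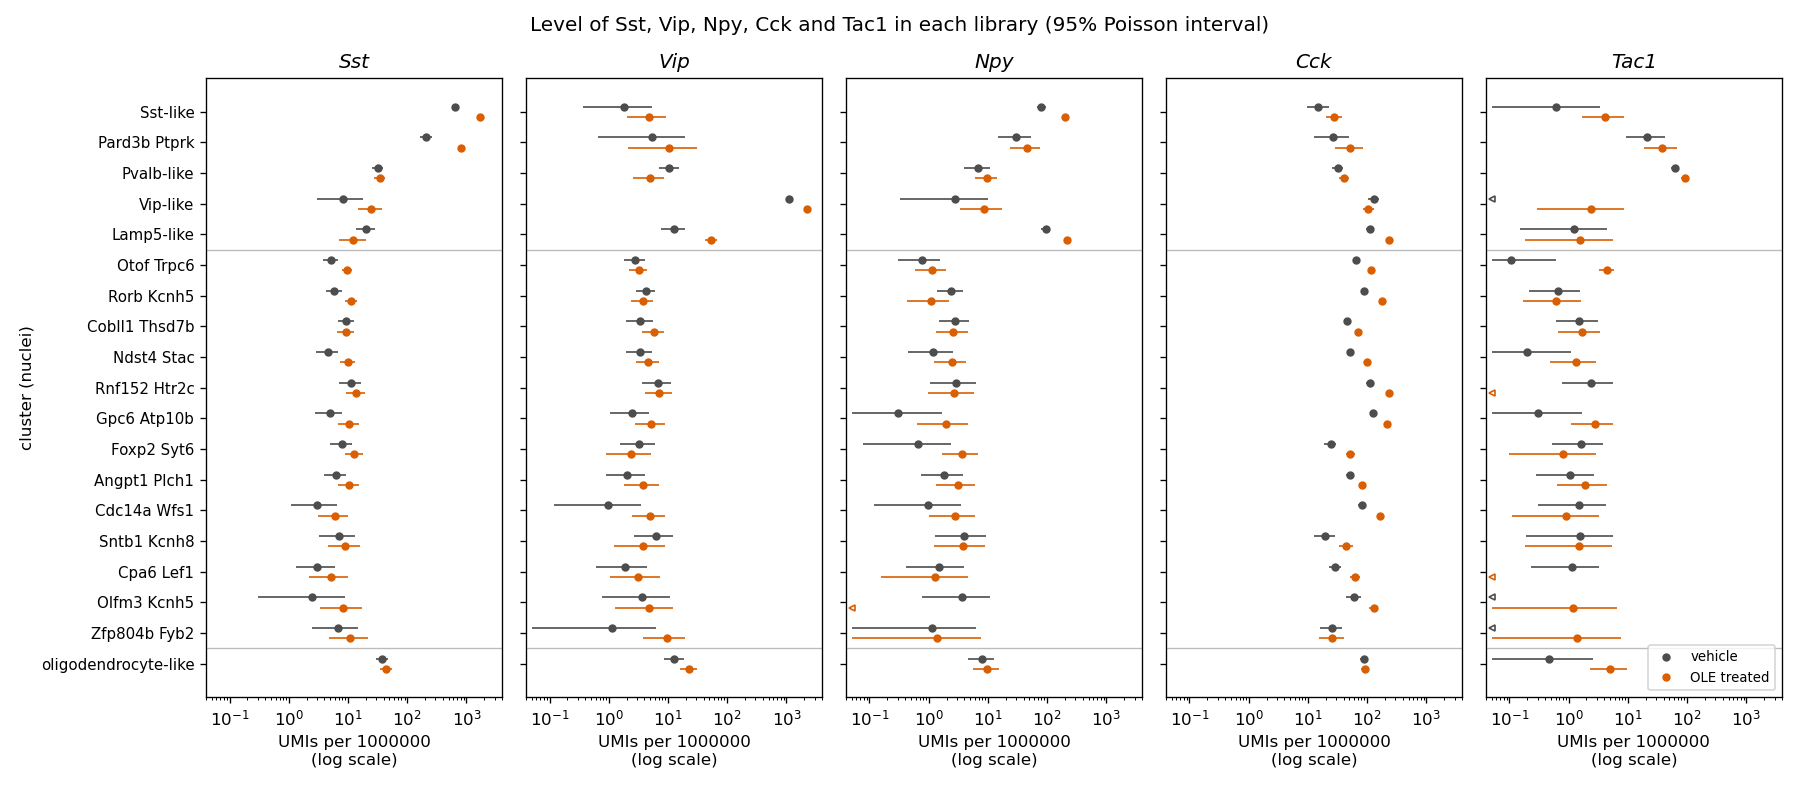
Levels of Sst, Vip, Npy, Cck and Tac1 in UMIs per 1000000 UMIs (log x axis) in 18 neuronal clusters and in oligodendrocyte-like nuclei (y axis), vehicle in grey and OLE treated in orange, with 95% Poisson intervals for counting error, open triangles for 0 UMIs and intervals ending at the left edge where they reach lower. Sst and Vip peak in 1 class each, at 1682 and 2191 in the OLE treated library, and Cck is spread over the excitatory clusters.

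Cck codes for cholecystokinin, which excitatory cortical neurons make along with a class of basket interneurons. Glutamatergic-like nuclei held 2224 Cck UMIs in the vehicle library and 3882 in the OLE treated one, levels of 63.6 and 118, a difference of 0.89 (0.81 to 0.96). Of the 13 excitatory clusters 13 had a higher level in the OLE treated library, with differences from 0.05 (-0.91 to 1.01) in Zfp804b Fyb2 to 1.19 in Sntb1 Kcnh8. With log-normalized counts before clustering 13 of 14 were higher, the exception at -0.01, and with no doublets removed 10 of 11, the exception at -0.02. The clusters share the same libraries, so their agreement is no replicate check. In glutamatergic-like nuclei 67.2% of all genes compared, and 83.1% of those of at most 10000 bases, were higher in the OLE treated library. The highest excitatory levels were those of Gpc6 Atp10b, 126 and 212, and Rnf152 Htr2c, 111 and 233, the latter a difference of 1.07 (0.85 to 1.30). The largest cluster, Otof Trpc6, had 64.4 and 117, a difference of 0.86 (0.72 to 1.00). Neighbours in the order mostly overlapped: 15 of 17 neighbouring pairs did so in the vehicle order and 16 of 17 in the OLE treated order, and rho between libraries was 0.89 over the 18 clusters.

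Interneurons had less uniform Cck values. GABAergic-like nuclei held 391 and 552 UMIs, levels of 55.6 and 84.4, a difference of 0.60 (0.41 to 0.79). Lamp5-like nuclei had levels of 110 and 233 from 176 and 303 UMIs, a difference of 1.08 (0.81 to 1.36). Vip-like nuclei, first of the 18 neuronal clusters in vehicle at 128, had 105 in the OLE treated library, a difference of -0.29 (-0.73 to 0.15), which counting error covers. At the finer clustering 35 of the Lamp5-like nuclei stood apart and carried markers of the Sncg class, the cholecystokinin basket cells. Their Cck level was 196 (163 to 234) in 18 vehicle nuclei and 564 (495 to 639) in 17 OLE treated nuclei. They held 125 of the 176 vehicle and 246 of the 303 OLE treated Cck UMIs of Lamp5-like nuclei. The nuclei still called Lamp5-like at the finer clustering, a set not identical to the remainder, had Cck levels of 53.0 (39.5 to 69.7) and 66.1 (49.8 to 86.0). Their difference was 0.32 (-0.26 to 0.90), so most of the Lamp5-like Cck difference lay in the small group of 35.

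Tac1 codes for the precursor of substance P and neurokinin A, both tachykinins. In GABAergic-like nuclei 176 vehicle and 242 OLE treated UMIs gave levels of 25.0 and 37.0, a difference of 0.57 (0.28 to 0.85). Pvalb-like nuclei were first in both libraries with levels of 61.7 (52.7 to 71.9) and 90.6 (79.0 to 103), a difference of 0.55 (0.26 to 0.85), and Pard3b Ptprk followed with 21.4 and 38.1. Of the 3 genes with at least 100 UMIs in Pvalb-like nuclei (Sst, Cck and Tac1), 0 were past 1.5-fold, where 5.15% of 6334 genes were. In the excitatory cluster Otof Trpc6 there was 1 Tac1 UMI in vehicle and 47 in OLE treated nuclei, levels of 0.11 and 4.42, a difference of 5.35 (2.81 to 10.69). Those 47 came from 20 nuclei, and 5 nuclei held 31 of them. The glutamatergic-like totals of 27 and 78 UMIs, levels of 0.77 and 2.36 and a difference of 1.61 (0.97 to 2.30), turn on this cluster: with log-normalized counts before clustering, which moves 221 of its nuclei with 38 of the Tac1 UMIs to another cluster, the difference was 0.60.

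Penk and Pdyn code for the opioid precursors proenkephalin, which yields ligands of the mu and delta receptors, and prodynorphin, which yields ligands of the kappa receptor. GABAergic-like nuclei had 73 and 93 Penk UMIs, levels of 10.4 and 14.2, a difference of 0.46 whose interval reached below 0, and of 1.17 when the level of oligodendrocyte-like nuclei was subtracted in each library. Penk was first in Vip-like nuclei in both libraries at 77.7 (58.8 to 101) and 98.8 (78.6 to 123), a difference of 0.35 (-0.16 to 0.86). The excitatory cluster Otof Trpc6 held more Penk UMIs than any other excitatory cluster, 83 and 139, levels of 8.97 and 13.1, a difference of 0.54 (0.14 to 0.95). Pdyn, in contrast, lay in the Sst-like class, at 29.0 (21.3 to 38.4) and 74.6 (62.1 to 88.8) from 48 and 126 UMIs, a difference of 1.36 (0.87 to 1.88). In all GABAergic-like nuclei Pdyn had 51 and 129 UMIs, levels of 7.25 and 19.7, a difference of 1.44 (0.97 to 1.94). A Pdyn UMI was found in 30% of vehicle and 26.7% of OLE treated Sst-like nuclei. In the OLE treated library 4 nuclei with at least 10 UMIs held 80 of the 126 and the other 86 nuclei held 46, while in vehicle no nucleus had more than 8, so the difference rests on those 4 nuclei.

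Crh codes for corticotropin-releasing hormone, the peptide that starts the hormonal stress response and that some cortical interneurons also make. GABAergic-like nuclei had 57 vehicle and 76 OLE treated UMIs, levels of 8.10 and 11.6, a difference of 0.52 (0.01 to 1.04). Vip-like nuclei were first in both libraries, at 70.9 (52.9 to 92.9) and 78.3 (60.4 to 99.8), a difference of 0.14 (-0.40 to 0.70). Crh in its main class thus did not differ at this depth, and the next class, Sst-like, held 4 and 9 UMIs.

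Adcyap1 codes for PACAP, a relative of vasoactive intestinal peptide that acts through Adcyap1r1 and shares the receptors Vipr1 and Vipr2 with it. It was the only one of the 10 with more UMIs per 1000000 in glutamatergic-like than in GABAergic-like nuclei besides Cck. Glutamatergic-like nuclei held 87 and 176 UMIs, levels of 2.49 and 5.33, a difference of 1.10 (0.72 to 1.49). In the cluster Ndst4 Stac the level was 5.60 (3.72 to 8.09) and 17.0 (13.4 to 21.2), a difference of 1.60 (0.96 to 2.28), and 13.8% and 29.3% of its nuclei had a UMI. Ndst4 Stac was first in the OLE treated library, while Zfp804b Fyb2, with 5 UMIs in each library, was first in vehicle at 5.69. Rorb Kcnh5 had 4.47 and 7.31, and Otof Trpc6 had 2.81 and 4.98. For Adcyap1 17 of 17 neighbouring pairs overlapped in each library, though in the OLE treated one Ndst4 Stac was clear of Rorb Kcnh5 (5.37 to 9.72) and Otof Trpc6 (3.73 to 6.52). Lamp5-like and Pard3b Ptprk nuclei had 0 UMIs in both.

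**Figure D3:**
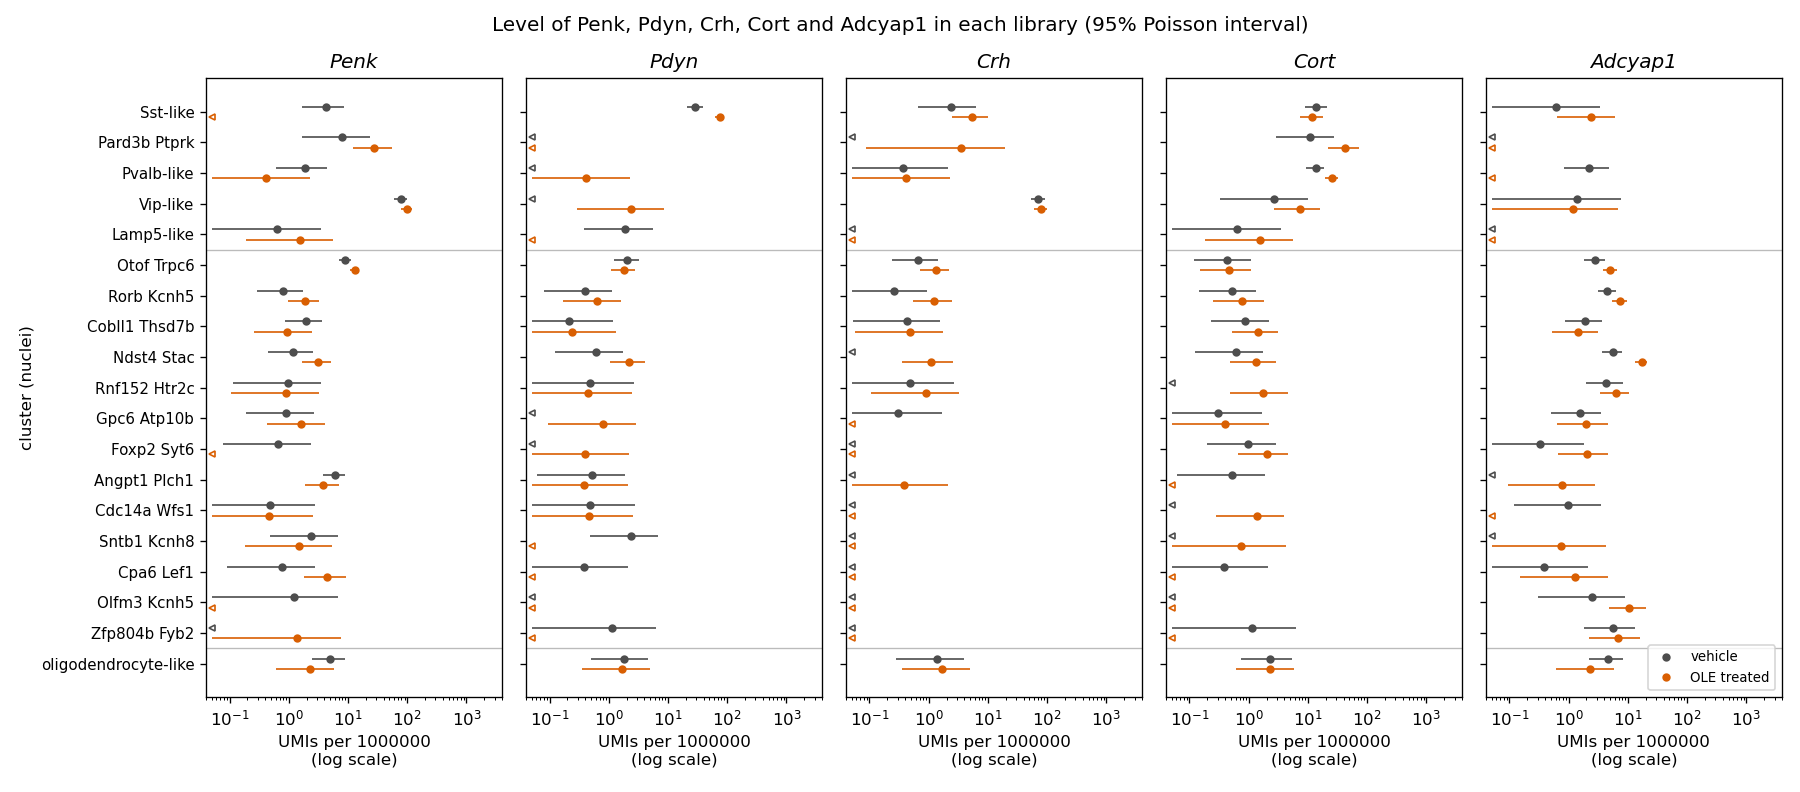
Levels of Penk, Pdyn, Crh, Cort and Adcyap1 in UMIs per 1000000 UMIs (log x axis) in 18 neuronal clusters and in oligodendrocyte-like nuclei (y axis), vehicle in grey and OLE treated in orange, with 95% Poisson intervals for counting error, open triangles for 0 UMIs and intervals ending at the left edge where they reach lower. Penk and Crh peak in Vip-like nuclei in both libraries (Penk 77.7 and 98.8, Crh 70.9 and 78.3), Pdyn in Sst-like nuclei.

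Free RNA in droplets can add UMIs to nuclei that do not make a peptide, and glia were used as a background level. An Sst UMI was found in 12.8% of vehicle and 13.3% of OLE treated oligodendrocyte-like nuclei (median depths 3493.5 and 3084.5 UMIs) and in 11.8% and 12.5% of microglia-like nuclei (2438.5 and 2359). Unnamed cluster 3, of shallow nuclei (medians 1254 and 1117) led by Ttr, Hbb-bs and Hba-a1, differed from these: it had Sst in 11% and 22.9%, with levels of 72.7 and 161, a difference of 1.15 (0.70 to 1.61), and Cck levels of 265 and 458, a difference of 0.79 (0.55 to 1.04). The part of this in the neuronal differences was not tested. Glutamatergic-like nuclei, which are far deeper, had Sst in 12.5% and 16.4%. They held 0.14 and 0.22 Sst UMIs per nucleus, where oligodendrocyte-like nuclei held 0.14 and 0.15. The share intervals of the 2 cell types overlapped in each library, and no expression is read from them, although in OLE treated tissue the UMIs per nucleus (0.196 to 0.244) were clear of the oligodendrocyte-like value (0.118 to 0.186). Share intervals also overlapped for excitatory Vip, at 6.16% and 8.36% of nuclei against 4.76% and 6.82% in oligodendrocyte-like nuclei, and for excitatory Npy, at 2.95% and 4.11% against 2.72% and 3.22%. What is left after subtracting the UMIs per nucleus of oligodendrocyte-like nuclei is accordingly unsteady, with glutamatergic-like differences of 4.04 in place of 0.71 for Sst, 2.16 in place of 0.61 for Npy and -0.011 in place of 0.56 for Vip. Adcyap1, by contrast, was in 4.76% and 7.96% of glutamatergic-like and in 1.53% and 0.76% of oligodendrocyte-like nuclei, though its level was 2.49 against 4.58 there in vehicle and 5.33 against 2.25 in OLE treated tissue. Tac1 was in 1.81% and 3.12% against 0.17% and 1.70%, clear of the glial share in vehicle but overlapping it in OLE treated tissue. The part of free RNA in the excitatory values was not tested.

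Shares of nuclei with a UMI showed less of a difference than levels. Vehicle first, an Sst UMI was found in 40.3% (34.9 to 45.9) and 42.7% (37.4 to 48.0) of GABAergic-like nuclei. For Vip the shares were 16.3% and 22.0%, for Npy 21.8% and 28.0%. Of the 10 genes 7 had a higher share in the OLE treated library, Penk, Pdyn and Adcyap1 being the exceptions. Shares were not counted for other genes. By level, 65.8% of all genes compared in this class, and 86.4% of those of at most 10000 bases, were higher in the OLE treated library. With each nucleus thinned to 3000 random UMIs, which leaves out no GABAergic-like nucleus, the Sst shares were 20.6% and 28.0%, and 8 of 10 were higher. Thinning left out 218 vehicle and 245 OLE treated oligodendrocyte-like nuclei, whose remaining nuclei had Sst in 12.4% and 12.4%, and it left out 256 and 200 microglia-like nuclei.

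For Cck, 68.7% (66.3 to 71.1) of vehicle and 79.4% (77.3 to 81.5) of OLE treated glutamatergic-like nuclei had a UMI, intervals that did not overlap. Thinned to 3000 UMIs, which left out 2 nuclei in each library, the shares were 21.1% and 30.3%. Oligodendrocyte-like nuclei had Cck in 25.7% and 24.4% unthinned and 18.6% and 20.1% thinned, with Cck levels of 87.0 and 91.3. Microglia-like nuclei had it in 24.7% and 36.2% unthinned and 23.8% and 36.6% thinned, with Cck levels of 123 and 197. Thinned glutamatergic-like shares thus lay between those of the 2 kinds of glia, although their unthinned UMIs per nucleus, 1.49 and 2.57, were above the 0.32 and 0.31 of oligodendrocyte-like nuclei. What part free RNA has in the Cck difference was not tested.

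**Figure D4:**
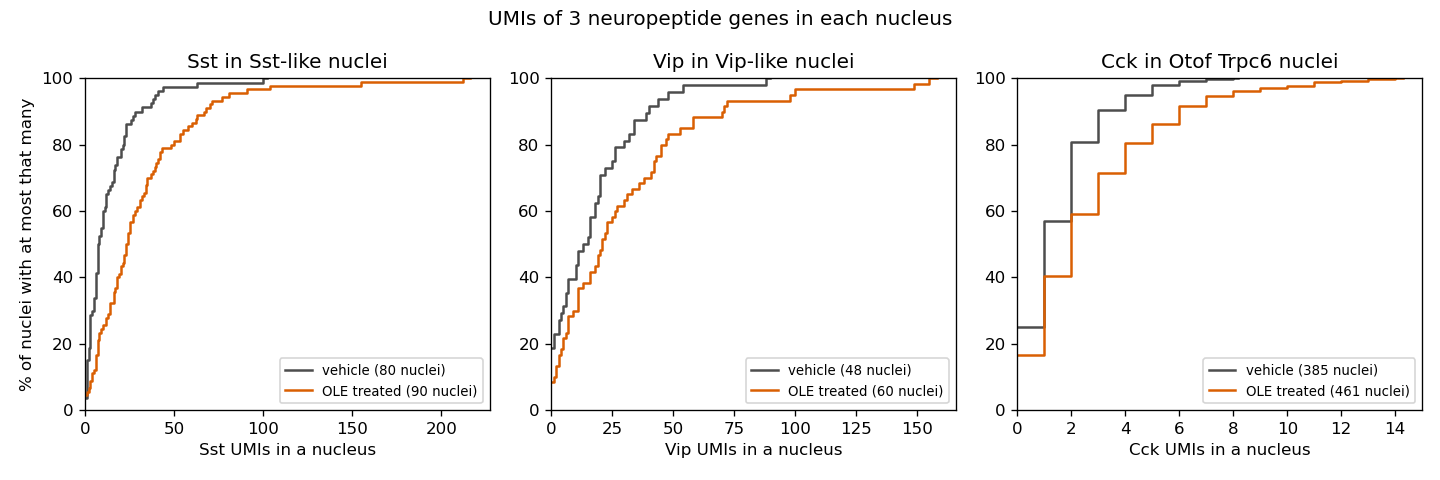
Cumulative percent of nuclei (y axis) holding up to a given number of UMIs of the gene (x axis) for Sst in Sst-like, Vip in Vip-like and Cck in Otof Trpc6 nuclei, vehicle in grey and OLE treated in orange. The OLE treated curve for Sst lies to the right, with a median of 23.5 UMIs per nucleus against 7.5.

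Pairs of peptide transcripts were also counted nucleus by nucleus, over both libraries, in 82 ordered pairings. In Sst-like nuclei a Cort UMI was found in 18.3% (10.1 to 29.3) of 71 nuclei with Npy and in 2.02% (0.25 to 7.11) of 99 without, at median depths of 19296 and 16443 UMIs. The rare cortistatin nuclei of this class thus lay mostly among those with neuropeptide Y, 13 of 15. In Pvalb-like nuclei Cort went with Tac1, at 34.2% (25.7 to 43.5) of 117 nuclei with Tac1 and 14.2% (8.47 to 21.7) of 120 without, at depths of 20188 and 18109. In Vip-like nuclei Cck was found in 61.5% (44.6 to 76.6) of 39 nuclei with Crh and in 31.9% (21.2 to 44.2) of 69 without, at depths of 13524 and 12872. Penk and Crh overlapped, with Crh in 35.7% of 42 nuclei with Penk and 36.4% of 66 without. The 6 pairings whose intervals did not overlap were these 3, each read in both directions. Within libraries 0 of 46 vehicle and 1 of 58 OLE treated pairings did not overlap, that 1 being Npy with Cort in Pvalb-like nuclei, at 70% of 10 nuclei with Npy and 24.3% of 111 without. In Sst-like nuclei Cort was too rare to pair within libraries. Vehicle first, Cck was in 70.6% and 54.5% of Vip-like nuclei with Crh and in 25.8% and 36.8% without, and Cort was in 29.1% and 38.7% of Pvalb-like nuclei with Tac1 and in 11.5% and 16.9% without. Crh was in 41.2% and 32.0% of Vip-like nuclei with Penk and in 32.3% and 40.0% without, directions that differ between libraries. Deeper nuclei hold more of any UMI, and the part of depth was not tested. Pairs of other genes were not counted, so how often pairings separate among all genes is not known here.

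A list of 19 other neuropeptide genes was read in the same way. In GABAergic-like nuclei 4 of the 19 had at least 100 UMIs and these 4 were more than 1.5-fold higher, where 5.81% of all genes and 19.4% of short genes were past 1.5-fold. Set against the median of all genes 3 of 4 stayed higher, and against that of short genes 0 of 4. Tac2, coding for neurokinin B, was at 24.0 and 42.8, a difference of 0.83, and Pnoc, coding for nociceptin, at 19.2 and 28.9, a difference of 0.59. Vgf and Scg2, precursors packed into the same vesicles, were at 51.7 and 88.8 and at 64.9 and 118. In glutamatergic-like nuclei 5 could be compared and 4 were more than 1.5-fold higher (4.21% of all genes were past it; 4 of 5 stayed so against all genes and 2 of 5 against short genes), with Nts (neurotensin) at 2.92 and 4.69, Grp (gastrin-releasing peptide) at 7.18 and 13.1, and Vgf and Scg2 again. The exception, Nmb, had a difference of -0.15. Median differences over these genes were 0.81 and 0.75.

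Receptors and binding proteins made a list of 23. In GABAergic-like nuclei 9 could be compared and 1 was more than 1.5-fold higher (5.81% of all genes were past it), Oprl1, the nociceptin receptor, at 7.67 and 11.6, with a median difference of 0.40 over the 9. Adcyap1r1, the PACAP receptor, was at 51.3 and 67.7, and Crhbp, which binds corticotropin-releasing hormone outside cells, at 38.9 and 56.6. Oprd1, the delta opioid receptor, was the 1 receptor of the 9 lower in the OLE treated library, at 83.8 and 64.4, a difference of -0.38. In glutamatergic-like nuclei 2 of 16 were more than 1.5-fold higher (4.21% of all genes were past it), Npy2r, a neuropeptide Y receptor, at 1.32 and 3.30, and Tacr1, the substance P receptor, at 2.32 and 3.48. Set against the median of all genes 0 of 9 and 1 of 16 stayed so. Receptors with more UMIs differed less there, such as Cckbr, the main cortical cholecystokinin receptor, at 32.7 and 39.0, and Oprm1, the mu opioid receptor, at 41.4 and 49.3.

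The machinery that cuts precursors and releases vesicles was read from a list of 17. In GABAergic-like nuclei 3 of 15 compared were more than 1.5-fold higher, where 5.81% of all genes were past 1.5-fold. These were the vesicle proteins Chga, at 37.2 and 75.2, and Chgb, at 68.5 and 121, and Pcsk1n, an inhibitor of a cutting enzyme, at 87.3 and 165. The same 3 passed in glutamatergic-like nuclei, of 16 compared, where 4.21% of all genes did. Set against the median of all genes 3 of 15 and 0 of 16 stayed so, and against that of short genes 2 of 15 and 0 of 16. The genes of this list with most UMIs in GABAergic-like nuclei differed little: Pam, which amidates peptides, was at 1017 and 967, Cadps, which readies vesicles for release, at 1418 and 1373, and the vesicle protein Ptprn2 at 948 and 997. In glutamatergic-like nuclei Pcsk2, a cutting enzyme, was at 1087 and 1056. Over the list the median difference was 0.10 in each class. Over the 3 lists and both classes 17 values were past 1.5-fold higher and 0 lower, against 5 higher and 1 lower when set against the median of short genes.

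Genes whose levels followed those of the peptides were read over the 18 neuronal clusters with both libraries summed, as Pearson's r of log2 (level + 10) among 13006 genes with at least 200 UMIs. The clusters share libraries, and r is given as a description. For Sst they were Lypd6 (0.95), Dab2 (0.94) and B3gat2 (0.91), and Lypd6 was itself a marker used to name the class. For Vip they were Tshr (0.99), Tac2 (0.98) and Cp (0.98), and for Crh Cp (0.99), Dach2 (0.96) and Vip (0.95). Penk lay nearest to Cp (0.92), Dach2 (0.89) and Tshr (0.88). Npy lay nearest to Edaradd (0.90), Mrap2 (0.89) and Pola1 (0.89). For Tac1 they were Adamtsl5 (0.96), Gm28501 (0.96) and Pla2g3 (0.95), and for Cort Ptgs1 (0.95), Rbp4 (0.95) and Bach1 (0.95). The last 3 were highest in Pard3b Ptprk, where Cort had 4 vehicle and 12 OLE treated UMIs, most of the 12 in 1 nucleus. Pdyn was followed by Adamts12 (0.92), Oprk1 (0.84), which codes for the kappa opioid receptor, and Timp3 (0.80). Cck, with Lonrf2 (0.83), Gm13269 (0.82) and Npy5r (0.80), and Adcyap1, with Tmem2 (0.77), 1110032F04Rik (0.76) and Gm42705 (0.75), had lower r.

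The 10 genes lie on 8 autosomes of build GRCm38, Npy and Tac1 both on chromosome 6 and Penk and Cort both on chromosome 4. None overlaps another gene of the files. Somatostatin and vasoactive intestinal peptide are textbook targets of cyclic AMP signalling through the cAMP response element. Promoters of the 10 genes (windows of 300 bases around the start) were searched on both strands for that element, TGACGTCA. It reads the same on either strand, and its core, TGACG or CGTCA, which lies within the full element, was searched for too. Sequences are from RefSeq, build GRCm38.p6, and 8 of the 10 genes were in the table, all but Penk and Crh. The full element was in 1 of 8, Sst, starting 48 bases before the start, and in 2.03% of all 27025 genes. The core was in 6 of 8, Sst, Vip, Cck, Tac1, Cort and Adcyap1, and in 23.0% of all genes. The TATA box, TATAAA, was in 2 of 8, Vip and Adcyap1, and in 15.7% of all genes. Shown are 5 of the 6 genes more than 1.5-fold higher in GABAergic-like nuclei, with the full element or core in capitals (the other, Pdyn, has neither in its 2 windows): Sst at chr16:23890795-23891094 (minus strand), Vip at chr10:5638968-5639267 (plus strand), Npy at chr6:49822460-49822759 (plus strand, no match), Cck at chr9:121495645-121495944 (minus strand) and Cort at chr4:149126714-149127013 (minus strand). A match is a description of letters, and no binding was measured. Whether cyclic AMP signalling has a part in the differences between libraries was not tested.
Sst: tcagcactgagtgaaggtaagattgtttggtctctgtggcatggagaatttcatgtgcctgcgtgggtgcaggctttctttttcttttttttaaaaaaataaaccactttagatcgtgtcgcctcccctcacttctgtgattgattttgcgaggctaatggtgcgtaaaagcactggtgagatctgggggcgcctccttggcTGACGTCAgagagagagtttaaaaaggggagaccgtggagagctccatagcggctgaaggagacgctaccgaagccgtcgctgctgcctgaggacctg
Vip: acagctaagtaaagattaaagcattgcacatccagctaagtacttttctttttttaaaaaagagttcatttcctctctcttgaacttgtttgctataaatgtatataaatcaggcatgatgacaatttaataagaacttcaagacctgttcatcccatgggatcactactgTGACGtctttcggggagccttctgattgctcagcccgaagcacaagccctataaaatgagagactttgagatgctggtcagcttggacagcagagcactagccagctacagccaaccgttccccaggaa
Npy: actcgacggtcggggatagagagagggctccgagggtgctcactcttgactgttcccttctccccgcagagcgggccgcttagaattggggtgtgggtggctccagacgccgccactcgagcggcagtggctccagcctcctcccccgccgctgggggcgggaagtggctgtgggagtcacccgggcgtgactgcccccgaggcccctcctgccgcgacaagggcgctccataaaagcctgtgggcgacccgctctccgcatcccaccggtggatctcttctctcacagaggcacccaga
Cck: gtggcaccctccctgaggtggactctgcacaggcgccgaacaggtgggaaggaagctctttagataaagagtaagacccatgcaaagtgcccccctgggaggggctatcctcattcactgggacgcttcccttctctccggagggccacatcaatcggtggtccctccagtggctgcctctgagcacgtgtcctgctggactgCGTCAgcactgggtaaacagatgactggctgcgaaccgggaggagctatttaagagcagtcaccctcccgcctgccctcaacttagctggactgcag
Cort: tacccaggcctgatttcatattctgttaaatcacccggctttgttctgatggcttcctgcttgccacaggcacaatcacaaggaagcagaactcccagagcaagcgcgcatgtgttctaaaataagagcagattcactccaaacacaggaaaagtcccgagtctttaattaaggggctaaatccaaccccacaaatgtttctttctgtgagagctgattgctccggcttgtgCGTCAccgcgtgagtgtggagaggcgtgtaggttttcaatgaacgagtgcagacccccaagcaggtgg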

How the data were processed

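The authors deposited filtered UMI count matrices, 1 per library, made per the labels with Cell Ranger 3.0.1 on mm10. No column belonged to another sample (columns of other samples: 0). Scrublet in scanpy 1.11.5 called under 0.5% of barcodes doublets on its own threshold, so the 5% with the highest scores were removed. Nuclei were clustered with SCTransform (sctransform 0.4.2, Seurat 5.3.0, R 4.3.3, Matrix 1.6.5; 3000 variable genes less the peptide genes, 30 components, 20 neighbours, Louvain resolution 0.4), and GABAergic-like nuclei again on 15 components. A cluster was named from marker lists where at least 3 markers were detected and 1 class scored above the others by 0.3, unless its 10 leading genes held more markers of another class than of its own (which left 2 excitatory clusters, Rorb Kcnh5 and Cpa6 Lef1, unnamed by 1 gene each) or it was shallow with no own marker among them; these naming rules were set after the clusters were seen. Sums, intervals and figures were made in Python 3.11.15 with numpy 2.4.6, scipy 1.17.1, pandas 2.3.3 and matplotlib 3.10.9, tested on simulated data. Ratios carry no pseudocount. Named besides the 10 genes were list genes past 1.5-fold and the 3 with most UMIs per list among those with at least 100 UMIs, and the 3 genes most alike in pattern. Further genes leading clusters were named after their values were seen. The members and lists were chosen with earlier results of these data known. Alternatives covered doublets, normalization, resolution, clustering genes, weighting of nuclei, mitochondrial content, free RNA, centring, minimum UMIs and thinning. Unnamed clusters were left out of the class sums, though the 3 with excitatory markers first were ranked among the 18 neuronal clusters. Cluster 0 was the largest unnamed one with 2446 vehicle and 1994 OLE treated nuclei.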

Additional observations from a re-analysis of the deposited data

Results flagged for a closer look

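As summed, Vip had log2 differences of opposite sign in different interneuron classes. In Pvalb-like nuclei the log2 difference of OLE treated over vehicle was -1.08 (-2.19 to -0.06), while it was 2.10 (1.37 to 2.90) in Lamp5-like nuclei and 0.97 (0.86 to 1.10) in Vip-like nuclei. Of the 28 vehicle UMIs in Pvalb-like nuclei 25 came from 1 nucleus. Without it 3 vehicle and 12 OLE treated UMIs were left, a difference of 2.10 (0.21 to 4.57), so the sign turns on that nucleus. The share of Pvalb-like nuclei with a Vip UMI was 3.45% in vehicle and 4.96% in OLE treated tissue. Similarly, 65.7% of the 70 OLE treated UMIs in Lamp5-like nuclei came from another. In Lamp5-like nuclei 17 of 20 vehicle and 68 of 70 OLE treated Vip UMIs lay in 35 nuclei that a finer clustering set apart. The difference between classes was not tested.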

How the results depend on the processing

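The count of genes more than 1.5-fold higher in GABAergic-like nuclei, 6, ranged from 4 to 8 over 13 alternatives with 0 lower in each. In glutamatergic-like nuclei the count of 5 fell to 3 with log-normalized counts before clustering, to 3 with every nucleus weighing the same, to 2 with at least 300 UMIs, to 3 without the nucleus richest in each gene and to 3 when set against short genes, and ranged from 4 to 7 over the other alternatives that left ratios. Over the 3 further lists the count of 17 fell to 11 when set against the median of all genes and to 5 (1 lower) against short genes, and was 23 (2 lower) with at least 30 and 13 with at least 300 UMIs, where 10.8% and 8.06% of all genes (30 UMIs, GABAergic-like first) and 2.92% and 2.49% (300 UMIs) were past 1.5-fold. Vip in glutamatergic-like nuclei turned to -0.011 with oligodendrocyte-like UMIs per nucleus subtracted. The causes were not tested. Of single-gene log2 differences 197 stayed within their counting interval, 20 did not and 1 changed sign. Of levels 150 stayed and 30 did not, and of shares (thinned, or with 3 or more UMIs) 0 stayed and 40 did not. Both of these changes can only lower a share, so the count for shares says nothing about the comparison of libraries. Among Sst-like, Pvalb-like, Vip-like, Lamp5-like and all glutamatergic-like nuclei, the leading group stayed the same for 18 to 20 of 20 gene and library pairs. First places among the 18 neuronal clusters were not part of that count. Subtracting the oligodendrocyte-like level left no glutamatergic-like ratio, nor one for Cck in GABAergic-like nuclei. Leaving out the richest nucleus or the Sncg-like nuclei, subtracting UMIs per nucleus, adding the 3 unnamed clusters and setting against short genes were chosen after seeing the data. No paired analysis was possible because there is 1 library per group. With 1 pool per group, treatment and library cannot be told apart. Counts of genes past 1.5-fold leave out those under 100 UMIs in a class, differences given for such genes rest on few UMIs, and free RNA may limit what low levels show.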

Other observations

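Cluster 0, the largest, stayed unnamed because markers of inhibitory neurons and of oligodendrocytes scored alike, and its leading genes included Tmsb4x, Tubb2a and Aldoa. It held 31.0% of vehicle and 29.6% of OLE treated Sst UMIs, and 33.4% and 36.4% of Cck UMIs, at median depths of 2365 and 4767 UMIs per nucleus. GABAergic-like nuclei held 48.6% and 56.6% of Sst UMIs. Over all retained nuclei Sst had 2588 vehicle and 5646 OLE treated UMIs, levels of 39.0 and 87.6 and a log2 difference of 1.17 (1.10 to 1.24). Vip had levels of 23.8 and 49.3, a difference of 1.05 (0.96 to 1.14), and Cck 91.7 and 160.2, a difference of 0.80 (0.76 to 0.85). These values mix composition with level, since cluster 0 gave 9.84% of vehicle and 15.2% of OLE treated UMIs. Within cluster 0 the differences were 0.48 (0.35 to 0.60) for Sst, 0.48 for Vip, 0.60 (0.33 to 0.87) for Npy, 0.54 for Tac1, 0.30 for Cck, -0.05 (-0.61 to 0.52) for Pdyn and -0.20 (-0.71 to 0.31) for Adcyap1.

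At the finer clustering 38 nuclei of Otof Trpc6 stood apart, 0 of them from the vehicle library and 38 from the OLE treated one, led by Glis3, Tspan18, Maml2 and C1ql2 and including Prox1. These nuclei held 7 Pdyn UMIs in 6 nuclei, a level of 12.5, and 58 Cck UMIs, a level of 103.9. With log-normalized counts before clustering 38 nuclei of Otof Trpc6 with the same leading genes again stood apart, 0 of them from vehicle. Whether they are a cell type caught in 1 pool or a feature of that library cannot be told apart. They are counted in the OLE treated values of Otof Trpc6 and of glutamatergic-like nuclei above. In the other 2 parts of the cluster Cck levels were 74.4 in vehicle and 149.3 in OLE treated nuclei (led by Ccbe1 and Nectin3) and 51.5 and 94.2 (led by Dach1 and Otof).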
